A study of Mus musculus with 6 samples.

Results

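Transcripts of the Rab GTPase family were profiled in the mouse neuroblastoma line N2A upon transient knockdown of Dali, a long non-coding RNA. The Dali knockdown group held 3 arrays of cells transfected with a construct for a short hairpin RNA against Dali, and the control group held 3 arrays of cells given a non-targeting vector. Both groups received 1.5 ug of construct, and 200 ng of the total RNA collected 2.5 days later was hybridised to Affymetrix Mouse Gene 1.0 ST arrays, which read each gene through a probe set, a group of short probes along its transcript. Members were all probe sets annotated to a single gene whose symbol is Rab, a number and at most a letter and a digit. This gave 62 of the 35556 probe sets in the value table, for 59 genes of 19938 named. Where a gene had more than 1 probe set, the member was chosen by its mean over the 6 arrays, the highest being taken, and this applied to Rab2a, Rab5b and Rab11b. All 59 mouse genes whose RefSeq symbol follows that pattern were represented.

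Rab proteins are small GTPases that give membranes their identity. In the GTP-bound form a Rab sits on its own organelle or vesicle and recruits effectors, which include tethers, motors and sorting proteins, and in the GDP-bound form it is extracted into the cytosol. Guanine nucleotide exchange factors (GEFs) switch Rabs on and GTPase-activating proteins (GAPs) switch them off. In neurons, members of the Rab3 branch ride on synaptic and dense-core vesicles, while others carry membrane into growing neurites. The 59 genes were described as 21 secretory Rabs, which act between the endoplasmic reticulum, the Golgi and the cell surface, 22 endocytic Rabs, 8 Rabs that are enriched in neurons and 8 others.

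The markers fitted the labelled line, as 10 of 12 measured neuroblastoma markers, of 14 listed, lay above the median level of all annotated probe sets (8.38 on the log2 scale), with Stmn2 the highest at 13.5 and Nefm the lowest at 6.00. Of the markers of astrocytes, oligodendrocytes, macrophages, fibroblasts and endothelium, only Col1a1 (8.61) and Pecam1 (8.67) lay above it. No probe set was annotated to Dali in the table used, so depletion of the target was not checked on these arrays. The knockdown rests on transfection without a described selection step, and a lower transcript level in every cell cannot be told apart from a loss in some of the cells. Arrays that share a replicate number in the labels deviated together from their group means for numbers 2 and 3 (correlations of 0.646 and 0.655). For number 1 the correlation was 0.141, below the 0.202 of knockdown replicate 2 with control replicate 1. Each comparison was also made with the replicate number as a block.

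Dali knockdown cells had lower transcript levels of Rab31 than control cells, and this was the 1 Rab gene called. Calling a gene required an adjusted p (Benjamini-Hochberg) under 0.1 and a change of at least 1.3-fold in the limma fit over the 11705 annotated probe sets that varied most. Under this rule 1.14% of all probe sets tested were called, 0.769% lower and 0.367% higher. Of the 59 Rab genes 21 (35.6%) were among those tested, and 1 of these 21 (4.76%) was called lower and 0 higher. At an unadjusted p under 0.05 in the fit without the variance filter, 11 of the 59 (18.6%) passed, against 10.7% of all annotated probe sets. With the replicate block, 4 of the 21 (19.0%) were called lower, namely Rab31, Rab2a, Rab28 and Rab39b, and 0 higher, against 4.89% lower and 2.77% higher (7.65% in all) over all probe sets tested. The variance filter keeps genes that differ between any of the 6 arrays, so the counts over the 21 describe these genes and do not stand for the family.

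Differences across the whole family were small. Over all 59 genes the Dali knockdown minus control difference had a median of -0.03 on the log2 scale (quartiles -0.17 and 0.02), against 0.02 (quartiles -0.07 and 0.10) over all 19938 genes. Centring each array on its own median shifts every difference by the same amount, so it cannot change the gap between the Rab genes and all probe sets. With centring the median difference was 0.046 over all annotated probe sets, against 0.016 without it, and -0.00068 over the Rab genes. The extremes were Rab31, at -0.61, and Rab32, at 0.32. The mean was lower in Dali knockdown cells for 37 of the 59 genes (62.7%), where 44.8% of all annotated probe sets were lower. In 18 genes (30.5%) the knockdown array was below the control array of the same number in all 3 pairs, and in 6 (10.2%) it was above in all 3, against 19.7% and 21.7% of all annotated probe sets. In 8 genes (13.6%), Rab2a, Rab3b, Rab3c, Rab4b, Rab10, Rab26, Rab31 and Rab39b, every knockdown array lay below every control array, against 6.84% of all annotated probe sets. In 2 genes (3.39%), Rab8b and Rab32, every knockdown array lay above every control array, against 8.59%.

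**Figure D1:**
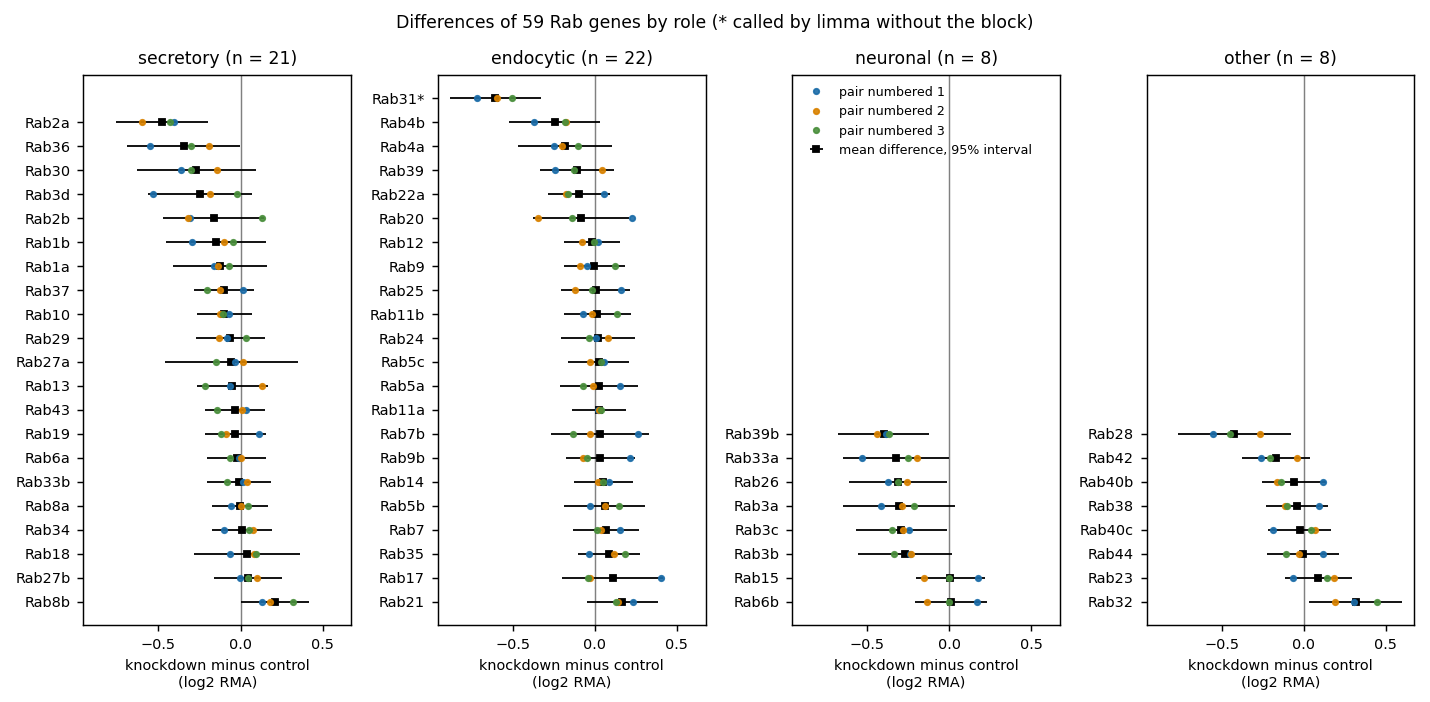
Dali knockdown minus control differences (horizontal axis, log2 RMA units) of the 59 Rab genes in 4 panels by role, ordered from the lowest within each panel. Black squares are mean differences with 95% intervals of the limma fit, and coloured points give each knockdown array minus the control array with its replicate number. The endocytic panel holds the lowest value, Rab31 at -0.61, and 6 of the 8 neuronal Rabs lie between -0.40 and -0.27.

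The roles differed in their medians. The median difference was -0.30 over the 8 neuronal Rabs (-0.31, -0.25 and -0.28 in pairs 1, 2 and 3), -0.06 over the 21 secretory Rabs, 0.02 over the 22 endocytic Rabs and -0.03 over the 8 others. The mean was lower in Dali knockdown cells for 6 of 8 neuronal, 17 of 21 secretory, 8 of 22 endocytic and 6 of 8 other Rabs. The sign of the endocytic median rested on 1 array, as it was -0.01 without knockdown replicate 1. The neuroblastoma markers also had lower means in Dali knockdown cells for 10 of 12 genes (44.8% over all annotated probe sets), with a median difference of -0.09. In 4 of the 12 every knockdown array lay below every control array, and in 1 every knockdown array lay above. The shares over all annotated probe sets were 6.84% and 8.59%. The variance filter kept 4 of the 12, and 0 of these were called with or without the block. The part of the markers in the neuronal Rab values was not tested. The medians are descriptions, and differences between roles were not tested.

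Promoter windows of 300 bases, from 250 before to 50 after the RefSeq start site (GRCm38.p6), were found for 48 of the 59 genes, 60 windows in all, and Rab2a was among the 11 genes without an entry. The motifs searched, each on both strands, were the POU octamer ATGCAAAT, recognised by POU-domain factors such as Pou3f3, whose gene lies next to Dali, the E-box CACGTG, the cyclic AMP response half-site TGACGT, and the GC box GGGCGG, bound by Sp-family factors. The E-box and the half-site can overlap by the letters CA or TG. The octamer was in 0 of the 60 windows, against 1.74% of all 32851 windows in the table. With a share this low, 60 windows are too few to show that Rab genes lack the motif. The GC box was in 41 of the 60 (68.3%), against 35.7% of all windows, and the windows of Rab genes had a median GC content of 61.2%, against 52.7%. The E-box was in 6 (10.0%), against 7.15%, and the half-site was in 7 (11.7%), against 7.51%. A match is a run of letters and not a measured site. Windows of the called gene, of the other genes called with the block that had an entry, and of Rab3a, the neuronal Rab with half-sites, are shown 5′ to 3′ with motif matches in capitals.
Rab31, chr17:65772703-65773002, minus strand: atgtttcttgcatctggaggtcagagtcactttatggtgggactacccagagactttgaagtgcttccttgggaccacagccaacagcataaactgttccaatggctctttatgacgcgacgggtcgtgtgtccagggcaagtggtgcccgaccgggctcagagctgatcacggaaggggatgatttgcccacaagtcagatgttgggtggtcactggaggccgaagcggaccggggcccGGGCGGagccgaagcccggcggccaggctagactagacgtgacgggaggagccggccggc
Rab28, chr5:41708130-41708429, minus strand: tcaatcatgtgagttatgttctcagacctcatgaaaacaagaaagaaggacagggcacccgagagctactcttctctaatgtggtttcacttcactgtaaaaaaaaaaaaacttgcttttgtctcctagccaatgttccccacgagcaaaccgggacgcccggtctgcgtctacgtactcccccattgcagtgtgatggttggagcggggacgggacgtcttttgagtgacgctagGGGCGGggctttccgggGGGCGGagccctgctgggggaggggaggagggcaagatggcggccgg
Rab39b, chrX:75578182-75578481, minus strand: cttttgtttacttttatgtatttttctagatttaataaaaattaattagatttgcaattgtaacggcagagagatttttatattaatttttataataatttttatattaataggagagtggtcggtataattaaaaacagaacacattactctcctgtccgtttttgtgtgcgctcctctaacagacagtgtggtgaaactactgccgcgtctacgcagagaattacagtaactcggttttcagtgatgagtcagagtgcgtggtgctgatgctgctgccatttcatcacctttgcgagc
Rab3a, chr8:70754453-70754752, plus strand: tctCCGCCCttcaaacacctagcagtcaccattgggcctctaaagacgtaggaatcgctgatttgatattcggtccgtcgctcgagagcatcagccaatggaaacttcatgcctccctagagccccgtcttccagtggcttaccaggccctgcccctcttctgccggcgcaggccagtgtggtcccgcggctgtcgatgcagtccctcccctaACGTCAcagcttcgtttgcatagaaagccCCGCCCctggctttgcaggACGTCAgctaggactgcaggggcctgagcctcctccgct
The Rab31 window held 1 GC box and the Rab28 window 2. The Rab39b window held none of the 4 motifs and had a GC content of 35.7%. The Rab3a window, 1 of 2 for this gene, held 2 half-sites and 2 GC boxes.

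Among the secretory Rabs, Rab2a had the largest difference. Rab2a acts on membranes between the endoplasmic reticulum and the Golgi. Its level was 12.22, 12.11 and 12.33 in knockdown replicates 1, 2 and 3, against 12.62, 12.71 and 12.76 in control replicates 1, 2 and 3 (log2 RMA values, here and below in the order of the replicate numbers). All 3 knockdown arrays lay below all 3 control arrays. The difference was -0.48 ± 0.13 (SE, n = 3 arrays per group, 95% interval -0.76 to -0.20), with an adjusted p of 0.122, above the threshold, and of 0.0144 with the block, below it. A second Rab2a probe set, not chosen because its mean was lower, read 11.34, 11.26 and 11.38 in knockdown cells and 11.72, 11.85 and 11.75 in control cells. It differed by -0.45 (95% interval -0.73 to -0.17), without overlap between the groups, with an adjusted p of 0.139 and of 0.0178 with the block. Both probe sets of the gene thus differed in the same direction by similar amounts. The paralog Rab2b, with the same placement, differed by -0.16 (95% interval -0.47 to 0.14).

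Rab36, a Golgi-associated member, and Rab3d, of secretory granules in exocrine cells, are named for their p-values and had smaller differences. Rab36 read 8.58, 9.22 and 8.89 in knockdown cells and 9.13, 9.41 and 9.19 in control cells, a difference of -0.35 (95% interval -0.69 to -0.01, adjusted p = 0.383, and 0.0497 with the block, under the fold minimum). Its groups overlapped, since knockdown replicate 2 was the highest of its group and above 2 control arrays, and without knockdown replicate 1 the difference was -0.19. Rab3d, which the filter removed, read 8.84, 9.35 and 9.26 in knockdown cells and 9.37, 9.53 and 9.28 in control cells, a difference of -0.25 (95% interval -0.56 to 0.07). Its knockdown replicate 1 was the lowest of the 6 arrays and the other knockdown arrays lay near the controls, so that without it the difference was -0.09. Rab30, another Golgi Rab, differed by -0.27 (95% interval -0.63 to 0.09), and by -0.10 without knockdown replicate 3.

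Rab8b, which works in transport from the Golgi to the plasma membrane, ran the other way. It read 10.26, 10.22 and 10.18 in knockdown cells and 10.12, 10.05 and 9.86 in control cells. Every knockdown array was above every control array, although the difference of 0.21 (95% interval 0.00058 to 0.42) had an adjusted p of 0.466 in the fit without the variance filter, which had removed it. Its paralog Rab8a differed by -0.0031 (95% interval -0.17 to 0.17). The Rab1 genes, which drive traffic from the endoplasmic reticulum to the Golgi, differed by -0.12 for Rab1a and -0.15 for Rab1b, with no call and intervals from -0.45 to 0.16. Rab10, which carries post-Golgi membrane, was lower on every knockdown array although the difference was only -0.10 (95% interval -0.27 to 0.07). The secretory Rabs not yet named, which include the Golgi Rabs Rab6a and Rab33b and the granule Rabs Rab27a and Rab27b, differed by between -0.10 and 0.05, with 95% intervals that together reached from -0.46 to 0.36.

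Among the endocytic Rabs, Rab31 had the largest difference. Rab31 is a relative of Rab5 that works between the trans-Golgi network and early endosomes. It read 10.30, 10.40 and 10.46 in knockdown cells, against 11.02, 10.99 and 10.96 in control cells. All knockdown arrays lay below all control arrays, with a gap wider than the range of either group. The mean was 10.39 ± 0.08 in knockdown cells and 10.99 ± 0.03 in control cells (SD, n = 3 each), so that Rab31 fell by 0.61 on the log2 scale (SE 0.13, 95% interval -0.88 to -0.33), a change of -34.3% on the linear scale. The adjusted p was 0.0607 and 0.00906 with the block. The call depended on single arrays, since without control replicate 1, control replicate 2 or knockdown replicate 1 the adjusted p was 0.184, 0.132 or 0.372 while the difference stayed between -0.61 and -0.56. In those fits, with fewer arrays, the number of all probe sets called lower was 35, 52 and 3, in place of 90. With the variance filter taken over all rows of the table, unnamed ones included, the adjusted p of Rab31 was 0.400.

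The Rab4 pair, which returns receptors from early endosomes to the surface, came next. Rab4b read 10.02, 10.16 and 10.18 in knockdown cells and 10.39, 10.34 and 10.36 in control cells, with no overlap, a difference of -0.24 (95% interval -0.52 to 0.03) and an adjusted p of 0.469. Rab4a read 10.06, 10.24 and 10.11 in knockdown cells and 10.31, 10.45 and 10.21 in control cells, with overlapping groups and a difference of -0.18 (95% interval -0.47 to 0.10, adjusted p = 0.616). Rab21, known for integrin endocytosis, had the highest positive difference of this role. It read 12.26, 12.17 and 12.01 in knockdown cells and 12.03, 12.03 and 11.88 in control cells, a difference of 0.17 (95% interval -0.05 to 0.39), with overlapping groups and removal by the filter.

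The Rabs that define the main endocytic stations were nearly level between the groups. They are Rab5a, Rab5b and Rab5c of early endosomes, Rab7 and Rab9 of late endosomes, Rab11a and Rab11b of recycling endosomes, and Rab14 and Rab22a, which act between the Golgi and endosomes. Their differences lay between -0.10 and 0.07, the outermost bounds of their 95% intervals were -0.28 and 0.31, and the variance filter kept 0 of the 9. Changes of more than 0.31 on the log2 scale in these genes in either direction lie outside those intervals. The remaining endocytic Rabs, which include Rab35 of endocytic recycling, Rab39, and the epithelial Rab17 and Rab25, differed by between -0.11 and 0.11.

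Of the 8 neuronal Rabs, 6 had differences between -0.40 and -0.27. Over the whole role, these 6 of 8 were lower in all 3 pairs (19.7% over all annotated probe sets). In 4 of the 8, Rab39b, Rab26, Rab3c and Rab3b, every knockdown array lay below every control array (6.84% over all annotated probe sets). None of the 6 was called without the block, with adjusted p between 0.190 and 0.457. With the block, the adjusted p was between 0.0195 and 0.062, and Rab39b alone also passed the fold minimum. Without the fold minimum, the adjusted p with the block was under 0.1 for 12 of the 21 tested Rabs that were lower (57.1%) and for 1 that was higher (4.76%, Rab32), against 12.8% lower and 9.34% higher over all probe sets tested, and the 12 held all 6 of these neuronal genes.

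Rab39b, whose human counterpart is mutated in an X-linked form of intellectual disability, read 10.55, 10.46 and 10.47 in knockdown cells and 10.94, 10.91 and 10.83 in control cells. The difference was -0.40 ± 0.13 (SE, 95% interval -0.68 to -0.12), the 3 arrays within each group lay close together, and the adjusted p was 0.19, and 0.0195 with the block. Its relative Rab39, of the endocytic role, differed by -0.11 (95% interval -0.34 to 0.12). The 2 genes have different values here, but the difference between them was not tested. Rab26, which is found on secretory granules and synaptic vesicles, read 8.43, 8.74 and 8.45 in knockdown cells and 8.80, 9.00 and 8.76 in control cells, a difference of -0.31 (95% interval -0.61 to -0.01, adjusted p = 0.37, and 0.0397 with the block).

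The differences of the 3 neuronal Rab3 genes and of the secretory Rab3d lay together, between -0.31 and -0.25. Rab3 proteins sit on synaptic vesicles and regulated secretory granules and act in the docking and priming that precede exocytosis. Rab3c read 11.79, 11.77 and 11.65 in knockdown cells and 12.03, 12.05 and 12.00 in control cells, a difference of -0.29 (95% interval -0.57 to -0.02, adjusted p = 0.362, and 0.0497 with the block). Rab3b read 7.36, 7.51 and 7.28 in knockdown cells and 7.60, 7.74 and 7.62 in control cells, a difference of -0.27 (95% interval -0.55 to 0.01, adjusted p = 0.422, and 0.062 with the block). Neither gene had overlapping groups. Rab3a, the main Rab of brain synaptic vesicles, is given although the rule for named genes did not pick it. It read 9.30, 9.56 and 9.12 in knockdown cells and 9.72, 9.85 and 9.33 in control cells, a difference of -0.31 (95% interval -0.65 to 0.03, adjusted p = 0.457, and 0.0498 with the block). In Rab3a the groups overlapped while the pairs agreed in direction, because replicate 3 was the lowest array of each group.

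**Figure D2:**
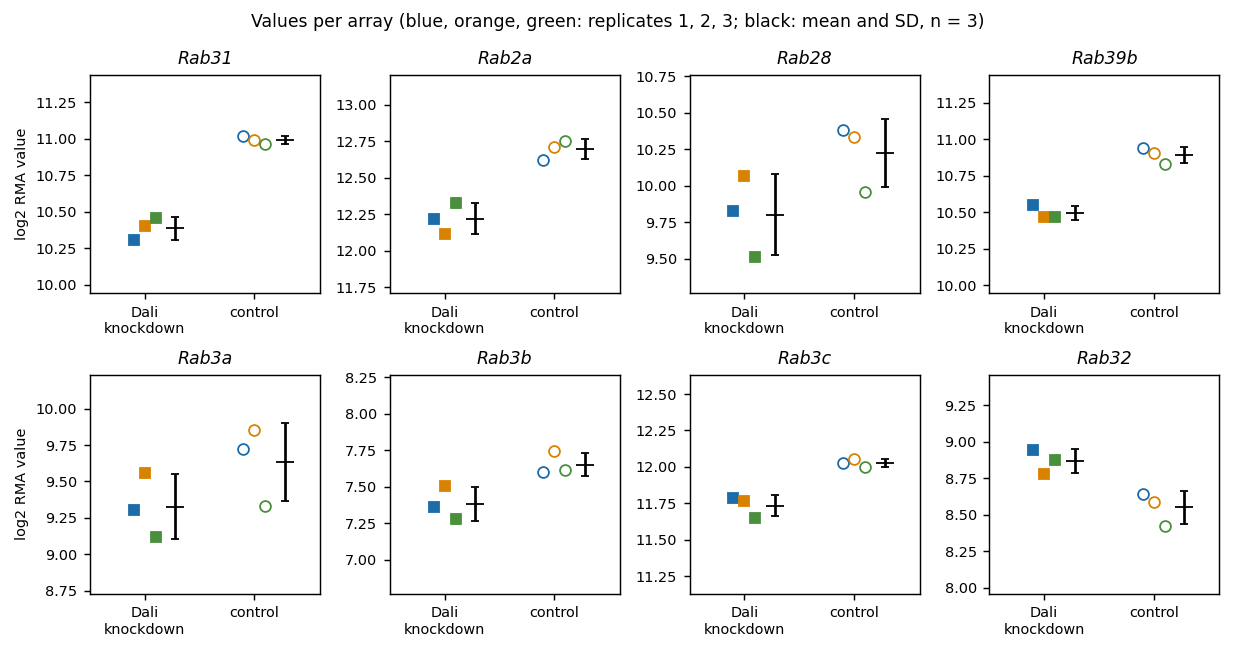
Log2 RMA values (vertical axis) of 8 Rab genes on each array, with Dali knockdown (filled squares) left of control (open circles), colours for the replicate number and black bars for the mean and SD (n = 3). The groups do not overlap for Rab31, Rab2a, Rab39b, Rab3b, Rab3c and Rab32, and they overlap for Rab28 and Rab3a. Replicate 3 is the lowest array of each group for Rab28, Rab3a and Rab3c.

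Rab33a, which carries vesicles into growing axons, had a difference of -0.33 (95% interval -0.65 to -0.0042), while its paralog Rab33b, a Golgi Rab present in most tissues, had one of -0.01 (95% interval -0.20 to 0.19). The last 2 neuronal members, Rab6b, the neuronal relative of Rab6a, and Rab15, of endocytic recycling, each differed by 0.01, with interval bounds of -0.21 and 0.23. The lower values of the neuronal role were thus not seen in Rab6b and Rab15. Both had low mean levels over the 6 arrays, 7.48 and 6.95, below the median of all annotated probe sets (8.38). At such levels a small difference does not show that a transcript was unchanged. Rab33a (7.16) and Rab3b (7.52), counted among the lower genes, also lay below that median.

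**Figure D3:**
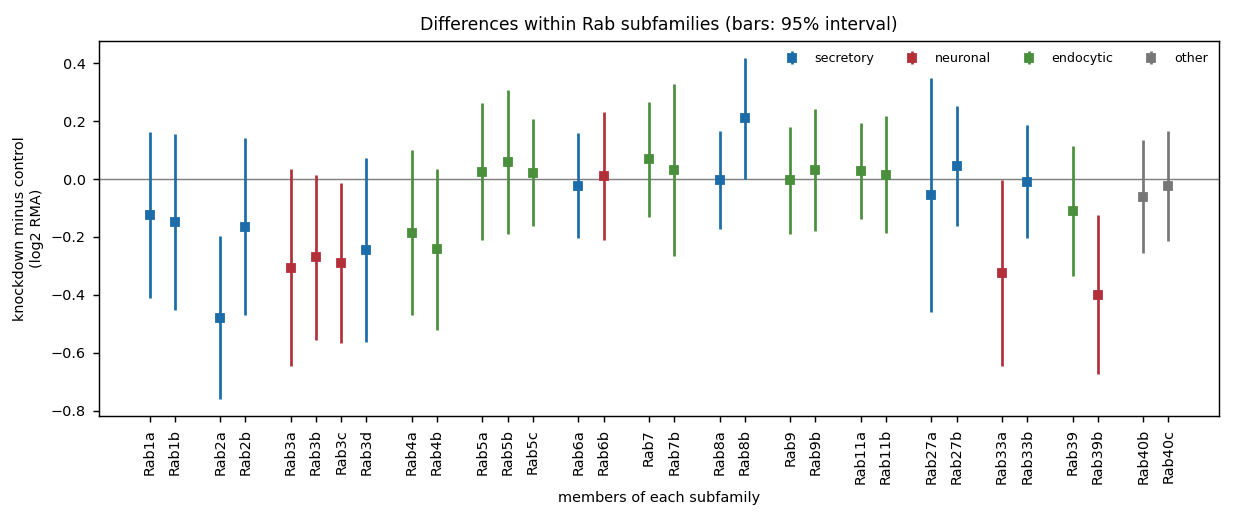
Dali knockdown minus control differences (vertical axis, log2 RMA units) of Rab genes that share a subfamily number, coloured by role, with 95% intervals of the limma fit. All 4 Rab3 genes lie between -0.31 and -0.25, and the 3 Rab5 genes between 0.02 and 0.06.

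Among the other Rabs, Rab28 and Rab32 had the largest differences, in opposite directions. Rab28 is a divergent member known in humans for a retinal cone dystrophy. It read 9.83, 10.07 and 9.51 in knockdown cells and 10.38, 10.33 and 9.96 in control cells. The groups overlapped, since knockdown replicate 2 was above control replicate 3, but each knockdown array was below the control array of its number, with differences of -0.55, -0.27 and -0.45 in pairs 1, 2 and 3. The difference was -0.42 ± 0.16 (SE, 95% interval -0.77 to -0.08), with an adjusted p of 0.28 and of 0.0234 with the block, so that the fit with the block called it and the fit without it did not. Without knockdown replicate 3 the difference was -0.28. Rab32, of melanosome biogenesis and mitochondria, read 8.95, 8.78 and 8.87 in knockdown cells and 8.64, 8.59 and 8.42 in control cells. All knockdown arrays were above all control arrays, and the difference of 0.32 ± 0.13 (SE, 95% interval 0.03 to 0.60), 24.5% on the linear scale, had an adjusted p of 0.334 and of 0.0503 with the block, under the fold minimum.

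Rab42 and Rab23 completed the named members of this role, and the filter removed both. Rab42 read 7.04, 7.31 and 7.18 in knockdown cells and 7.30, 7.35 and 7.38 in control cells, a difference of -0.17 (95% interval -0.38 to 0.04). Rab23, a negative regulator of Hedgehog signalling, read 9.72, 9.80 and 9.91 in knockdown cells and 9.78, 9.61 and 9.77 in control cells, a difference of 0.09 (95% interval -0.12 to 0.29). The groups overlapped in both genes. Rab38, Rab40b, Rab40c and Rab44 differed by between -0.06 and -0.0049.

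The largest spread within groups was that of Rab27a (SD 0.36), a Rab of secretory lysosomes and granules, whose groups differed by -0.06. It read 10.38, 10.31 and 9.66 in knockdown cells and 10.42, 10.30 and 9.81 in control cells. Replicate 3 was the lowest array of both groups for Rab27a and for Rab30, Rab28, Rab3a, Rab18 and Rab33a, which also had a large spread. The same held for further members with a smaller spread, among them Rab1a, Rab3c and Rab21. It did not hold for Rab36 and Rab3d, whose spread was also large (SD 0.25 and 0.21). In Rab20 and Rab17 control replicate 3 was the highest control array. The share of all annotated probe sets with replicate 3 lowest in both groups was not counted. Rab27a was picked for its spread after the values were seen.

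The proteins that load, switch and read Rabs were measured alongside. Only genes kept by the variance filter were tested and could be called. Over all probe sets tested, 1.14% were called, and 7.65% with the block. Of the genes for prenylation and membrane extraction, 8 of 10 were measured (median difference -0.12), 3 were tested and 0 were called with or without the block. Icmt, which methylates prenylated proteins, differed by -0.18 and Rabif, a Rab-binding chaperone, by -0.19. Of the Rab-like GTPases, 6 of 7 were measured (median -0.06), 5 were tested and 0 were called with or without the block. Rabl3 differed by 0.32 and Rabl6 by -0.14. Of the GEFs, 51 of 53 were measured (median -0.0025), 23 were tested and 0 were called with or without the block. The smallest p was that of Trappc2, a subunit of the TRAPP tethering and exchange complexes, which read 11.79, 11.96 and 11.81 in knockdown cells and 12.21, 12.32 and 12.15 in control cells, without overlap, at -0.37 (adjusted p = 0.24, and 0.0243 with the block, under the fold minimum). Dennd4b, a DENN-domain exchange factor for Rab10, differed by 0.24. Rab3gap1 and Rab3gap2, counted in this list, form a GAP complex for Rab3 and were not among the GAPs listed. They differed by 0.15 and -0.23. All 39 GAPs listed were measured (median -0.07), 21 were tested and 0 were called with or without the block. Tbc1d25 differed by -0.37 and Tbc1d23 by -0.25.

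The called genes among the partners were both endocytic effectors, and both fell. Plin3, a lipid-droplet coat protein that also binds Rab9, read 10.02, 10.11 and 9.64 in knockdown cells and 10.83, 10.80 and 10.41 in control cells, without overlap. Plin3 fell by 0.75 on the log2 scale (95% interval -1.09 to -0.41, adjusted p = 0.0571, and 0.00637 with the block). Rab11fip2, which links Rab11 to myosin Vb on recycling endosomes, read 8.36, 8.88 and 8.57 in knockdown cells and 9.21, 9.29 and 9.09 in control cells, without overlap. Rab11fip2 fell by 0.59 (95% interval -0.91 to -0.27, adjusted p = 0.0969, and 0.0139 with the block). They were 2 of 12 endocytic effectors tested, where 0.769% of all probe sets tested were called lower. Of the 31 listed, 30 were measured, and their median difference was -0.01. Both calls depended on single arrays. For Plin3 the adjusted p was 0.192 without control replicate 1 and 0.317 without knockdown replicate 1. For Rab11fip2 it was 0.238, 0.251, 0.492 and 0.117 without control replicate 1, control replicate 2, knockdown replicate 1 and knockdown replicate 3. With the block 1 endocytic effector was also called higher, Osbpl1a, a Rab7 effector that senses cholesterol, at 0.42 (adjusted p = 0.02), where 2.77% of all probe sets tested were called higher and 4.89% lower.

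Of the secretory and motor effectors, 25 of 27 were measured (median difference -0.05), 8 were tested and 0 were called. Exoc6, the exocyst subunit that binds Rab11, read 9.98, 10.14 and 10.03 in knockdown cells and 10.50, 10.49 and 10.30 in control cells, without overlap, at -0.38 (adjusted p = 0.234, and 0.0295 with the block, just under the fold minimum). Sytl3, a Rab27 effector, differed by -0.28. With the block 1 gene of this list was called higher, Kif20a, a kinesin that binds Rab6 and works in cytokinesis, at 0.40 (adjusted p = 0.0276). The list of synaptic Rab3 effectors also held active-zone and vesicle release proteins that are not all direct effectors of Rab3. All 10 of its genes were measured, 5 were tested and 0 were called with or without the block. The median difference over the 10 was 0.02, with values up to 0.24 for Rims2 and 0.18 for Erc2, both scaffolds of the presynaptic active zone. The Rab3 genes themselves lay between -0.31 and -0.25, and the difference between them and the listed genes was not tested.

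**Figure D4:**
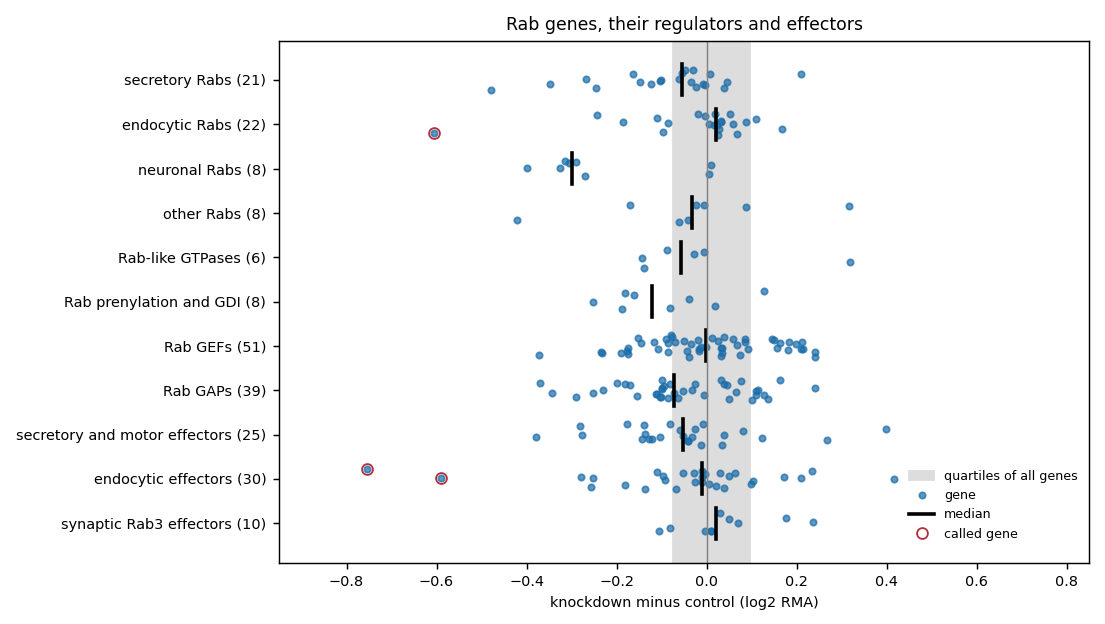
Dali knockdown minus control differences (horizontal axis, log2 RMA units) of the Rab genes by role and of the lists of regulators and effectors (rows, number of genes in brackets), with points for genes, black lines for medians, red rings for called genes and a grey band for the quartiles of all genes (-0.07 to 0.10). Rab31, Plin3 and Rab11fip2 carry the rings, and the median of the neuronal Rabs, -0.30, lies outside the band.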

How the data were processed

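Starting from probe intensities, the authors applied RMA background correction, quantile normalisation and a summary per gene-level probe set. The deposited log2 values ran from 2.76 to 14.8. Which arrays were normalised together and which tool versions were run is not given in the sources used here. An annotation table gave 21789 rows 1 gene symbol and 1621 several, and 12146 rows stayed unnamed and out of the tests. Values of different probe sets were not compared as levels, apart from the marker check and the low levels of Rab6b, Rab15, Rab33a and Rab3b.

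The fit of Dali knockdown against control used limma 3.58.1 in R 4.3.3, with lmFit, eBayes and two-sided tests. The 11705 of 23410 annotated probe sets with an interquartile range above the median entered it, a reading of the study's variance cut-off made here. Calls required a Benjamini-Hochberg adjusted p under 0.1 and a fold of at least 1.3. Values of members that the filter removed come from a fit to all annotated probe sets, and 95% intervals are those of the fit that gave the gene. The procedure was tested on simulated data. The alternatives are given in the closing section. The number of arrays limits the precision.

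Members and lists were chosen with earlier results of these data known. Named with values per array were members called with or without the block, and in each role the 4 lowest p when all annotated probe sets were fitted. Rab3a and Rab27a were added after their values were seen. Of each partner list, up to 4 called genes, or the 2 with the smallest p, were named, and Kif20a and Osbpl1a were added because the block called them.

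Same-numbered arrays correlated in their deviations from group means, by 0.141, 0.646 and 0.655 for numbers 1, 2 and 3 over annotated probe sets, so the labels' numbers were treated as pairs. Number 1 was not specific in this, as knockdown replicate 2 correlated with control replicate 1 at 0.202. The labels do not state that same-numbered arrays are pairs. The correlations come from the same values that the block then tests. They are not independent of each other, because deviations cancel out within each group. The block leaves 2 residual degrees of freedom in place of 4. The series calls the samples biological replicates without naming cultures or days, so the p-values rest on the spread among these samples alone.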

Additional observations from a re-analysis of the deposited data

How the results depend on the processing

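With the replicate block 4 Rab genes were called lower, and 572 of all probe sets were called lower and 324 higher, against 90 and 43 without it. For Rab2a, Rab28 and Rab39b the block gave adjusted p of 0.0144, 0.0234 and 0.0195, and it changed no other call of a Rab gene. The Rab genes called lower numbered 0 with the variance filter over all rows, where Rab31 had an adjusted p of 0.400 and limma called 0 probe sets in either direction. They numbered 3 with a filter on mean level (Rab2a, Rab31 and Rab39b), 2 with a mean-variance trend (Rab2a and Rab31), 0 at an adjusted p under 0.05 with no fold minimum, and 0 to 1 when an array was left out. All probe sets called lower and higher numbered 29 and 12 without the variance filter and 25 and 7 at an adjusted p under 0.05. Called higher were 25 after a second quantile normalisation and 71 with the trend. Leaving out 1 array gave 3 to 334 lower and 1 to 174 higher, with the fewest without knockdown replicate 1 and the most without knockdown replicate 2. No Rab gene was called higher under any alternative run.

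The regulators and effectors were put through the alternatives after seeing the data. Those called lower numbered 0 without the variance filter, with it over all rows, with a filter on mean level and at an adjusted p under 0.05, 1 (Plin3) after centring or a second quantile normalisation, and 0 to 2 when an array was left out. Those called higher numbered 2 with the block and 1 (Osbpl1a) with a filter on mean level.

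With each array centred on its median, the median over all annotated probe sets was 0.046, against 0.016 without centring, and the median differences were -0.00068 over all Rabs, -0.026 over secretory and -0.27 over neuronal Rabs. Over members kept by the variance filter they were -0.27 over all, -0.16 over secretory and -0.18 over endocytic Rabs. Leaving out 1 array gave -0.067 to -0.028 over all Rabs, -0.082 to -0.031 over secretory, -0.01 (without knockdown replicate 1) to 0.04 over endocytic and -0.36 to -0.23 over neuronal Rabs. Rab27a, which was not called, differed by -0.24 to 0.17 when an array was left out. Every other Rab gene named with values per array kept its direction when an array was left out, after centring and after a second quantile normalisation. The other alternatives leave each mean difference unchanged, and leaving out an array cannot reverse groups that do not overlap. Sizes changed, with Rab36, Rab30 and Rab3d down to -0.19, -0.10 and -0.09 without 1 array. The cause of these changes was not tested.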
